A study of Rattus norvegicus with 10 samples.

Results

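The genes of fatty acid oxidation and the targets of the PPAR receptors were examined here as 1 set of 44 genes, taken by symbol. Of these, 43 had a probe set of their own among the 10411 genes named on the array, and Acaa1a shared its only probe set with Acaa1b and was not measured separately. Each gene was represented by its brightest probe set, by mean log2 signal over all 10 arrays; 9 genes had several. A filter on dim probe sets kept 35 of the 43 genes, and 8 fell below it (Acot1, Acot2, Cpt2, Acox2, Ehhadh, Ppara, Ppargc1a and Rxra).

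The tissue, taken on postnatal day 50, was mammary gland number 4 of female rats of the Sprague-Dawley stock, fed 1 of 3 diets. There were 4 arrays of the SPI diet (replicates 2, 3, 4 and 5), 3 of the GEN diet (replicates 1, 3 and 5) and 3 of the CAS diet (replicates 1, 2 and 3), and values per array follow that order. GEN is genistein, an isoflavone of soy and a ligand of estrogen receptors. From knowledge of the study rather than the labels, SPI stands for soy protein isolate and CAS for casein, the control protein. Each Affymetrix RAE230 array carried RNA pooled from 2 animals, 3 labelled targets were made from each pool, and arrays of the same pool are not marked, so p-values measure the spread between these arrays and may in part be technical. The labels call the source epithelial cells, whereas the protocol names the gland, and colon appears in the design text. All 11 luminal epithelial marker probe sets passed the filter, and so did 8 of 11 white adipocyte, 10 of 10 macrophage and 4 of 4 endothelial ones. In RNA of a mixed tissue, fewer cells of a type and less RNA per cell cannot be told apart.

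Fatty acids are burned in steps. Acyl-CoA synthetases activate the chain, the carnitine shuttle carries it across the inner mitochondrial membrane, and a repeating spiral of dehydrogenation, hydration, dehydrogenation and thiolysis shortens it, while peroxisomes handle very long and branched chains. PPAR receptors bind fatty acids and, paired with the retinoid receptor RXR, switch on many of these genes. In the mammary gland fat cells and secretory epithelium lie side by side, and both import, activate and store fatty acids.

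PPAR and RXR bind a direct repeat of AGGTCA with 1 base between the copies, AGGTCANAGGTCA. Promoter windows of 300 bases (250 before and 50 after the gene start, RefSeq, build GRCr8) were available for 38 of the 44 genes, and both strands were searched. With at most 2 mismatches in the 12 fixed bases, 6 of the 38 genes (15.8%) held the repeat, against 3.77% of all 33469 promoter windows. With at most 1 mismatch it was 1 gene (2.63% against 0.439%), and with at most 3 mismatches 11 genes (28.9% against 24.9%). A single AGGTCA on either strand stood in 7 genes (18.4%, against 16.2% of all windows). The members are counted by gene, with a match in any window of the gene, and the background by window. This can raise the share of the members, and the set was itself drawn up in part as PPAR targets. A match is only a description of these letters. The 6 elements are shown because they are the nearest matches to the repeat in windows of the set, although none matches all 12 fixed bases. Each is written on the strand of its gene with 10 bases to either side, and the capitals mark the 13 bases of the element.
Acadvl: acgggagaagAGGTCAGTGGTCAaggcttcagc
Crat: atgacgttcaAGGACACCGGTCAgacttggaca
Echs1: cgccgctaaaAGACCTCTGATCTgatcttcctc
Etfa: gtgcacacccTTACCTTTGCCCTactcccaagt
Slc25a20: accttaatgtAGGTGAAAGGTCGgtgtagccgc
Ucp3: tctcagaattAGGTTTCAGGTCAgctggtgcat
The printed stretches lie at chr10:55236700-55236732 (Acadvl, 1 mismatch), chr3:34087300-34087332 (Crat), chr1:204333639-204333671 (Echs1), chr8:64788097-64788129 (Etfa), chr8:118243578-118243610 (Slc25a20) and chr1:164227843-164227875 (Ucp3). The genes of Slc25a20 and Ucp3 run on the plus strand and the other 4 on the minus strand, and in Echs1 and Etfa the repeat reads on the opposite strand. None of these 6 genes reached an unadjusted p under 0.05 between any of the 3 diets. Among the 5 genes that did, Acsl1, Pdk4, Acadm and Pex11a had no such element and no single AGGTCA in their windows, and no window was at hand for Acaa2. With only 6 of 38 genes holding the element, its absence from so few genes is not informative. Sequence outside the 300 bases was not searched, and control by PPAR was not tested.

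Signals are MAS5 intensities, scaled by the authors so that every array has about the same trimmed mean. Median signals of the arrays ran from 222.8 to 256.7. The beta-actin 3'/5' signal ratio, in which high values mean more signal from the 3' end of the transcript, ran from 2.83 to 7.77, with the highest on SPI 4 and the lowest on GEN 5. The GAPDH 3'/5' ratio was also highest on SPI 4 (2.91), but lowest on GEN 3 (1.18), with 1.25 on GEN 5. The mean log2 signal of the 11 luminal markers ran from 9.30 to 10.52 on SPI, 10.52 to 11.03 on GEN and 10 to 10.71 on CAS, with SPI 4 at the bottom and GEN 5 at the top. The mean of 23 skeletal muscle markers, of which 7 passed the filter, was 7.64 on CAS 1 and 5.69 to 6.21 on the other arrays.

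None of the 35 genes differed between any pair of diets after adjustment, and most log2 differences were within 0.5 units of 0, with the farthest at -1.09. Differences were tested on log2 signal with limma over all 9520 probe sets that passed the filter, with Benjamini-Hochberg adjustment and a threshold of 0.05 on the adjusted p. No probe set passed it in any of the 3 comparisons (0%), with or without an intensity trend in limma. At an unadjusted p under 0.05, SPI against CAS gave 1 of 35 genes (2.86%), beside 4.82% of all probe sets tested. GEN against CAS gave 1 of 35 (2.86%), beside 5.89%, and SPI against GEN gave 3 of 35 (8.57%), beside 7.95%. The signals of the diets did not overlap for 2 genes (5.71%) in SPI against CAS, beside 4.60% of all probe sets. The same held for 4 genes (11.4%) in GEN against CAS, beside 11.1%, and for 1 gene (2.86%) in SPI against GEN, beside 8.50%. Each share lay near or below that of the array as a whole.

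**Figure D1:**
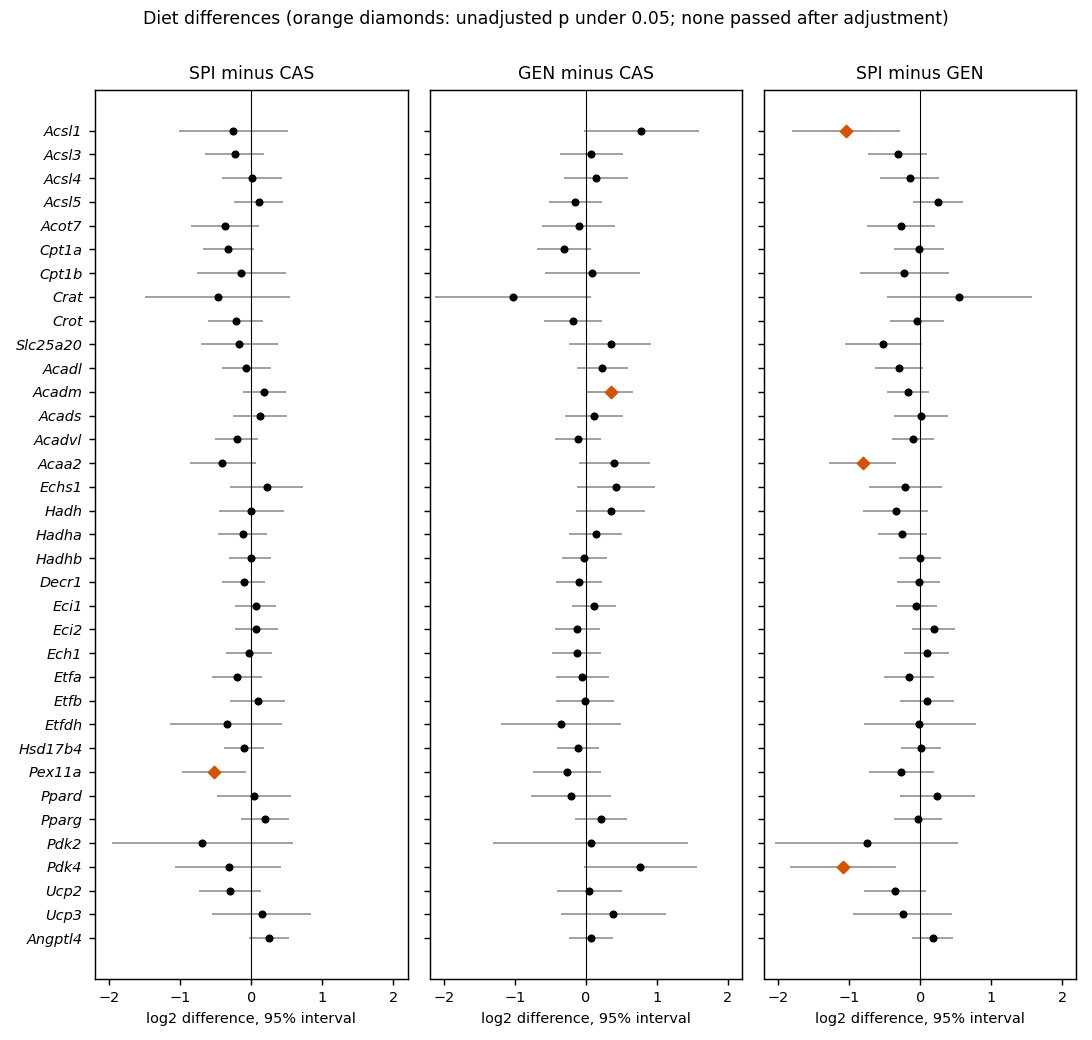
Log2 difference of each of the 35 tested genes (points) with its 95% interval (lines) for SPI minus CAS, GEN minus CAS and SPI minus GEN, ordered by role down the page. Orange diamonds mark the 5 differences at an unadjusted p under 0.05, and none of them passed adjustment.

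For SPI against CAS, 13 of the 35 genes had a log2 difference above 0 and 22 (62.9%) below, where 52.3% of all probe sets lay below. The median was -0.11, beside -0.01 over all probe sets tested. For GEN against CAS, 19 were above and 16 (45.7%) below, where 52.1% of all probe sets lay below, and the median was 0.07, beside -0.01. For SPI against GEN, 10 were above and 25 (71.4%) below, where 50.8% of all probe sets lay below, and the median was -0.14, beside -0.004. With each array centred on its median instead, the splits were 16 above and 19 (54.3%) below both for SPI against CAS and for SPI against GEN, where 37.9% and 40.1% of all probe sets lay below. The comparisons share arrays and are not independent. Without SPI 4 the SPI against CAS split was 13 above and 22 below, and without CAS 1 it was 14 above and 21 below. Leaving out both, a choice made after seeing the data, gave 22 above and 13 below, but these are the SPI array with the lowest and the CAS array with the highest median deviation of these genes (-0.10 and 0.10), so the direction of that shift was set by the choice. The 95% interval of the log2 difference lay within 1 unit to either side of 0 for 30 of 35 genes in SPI against CAS, 29 in GEN against CAS and 29 in SPI against GEN. It lay within 0.5 units for 13, 10 and 14 genes in the same order.

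**Figure D2:**
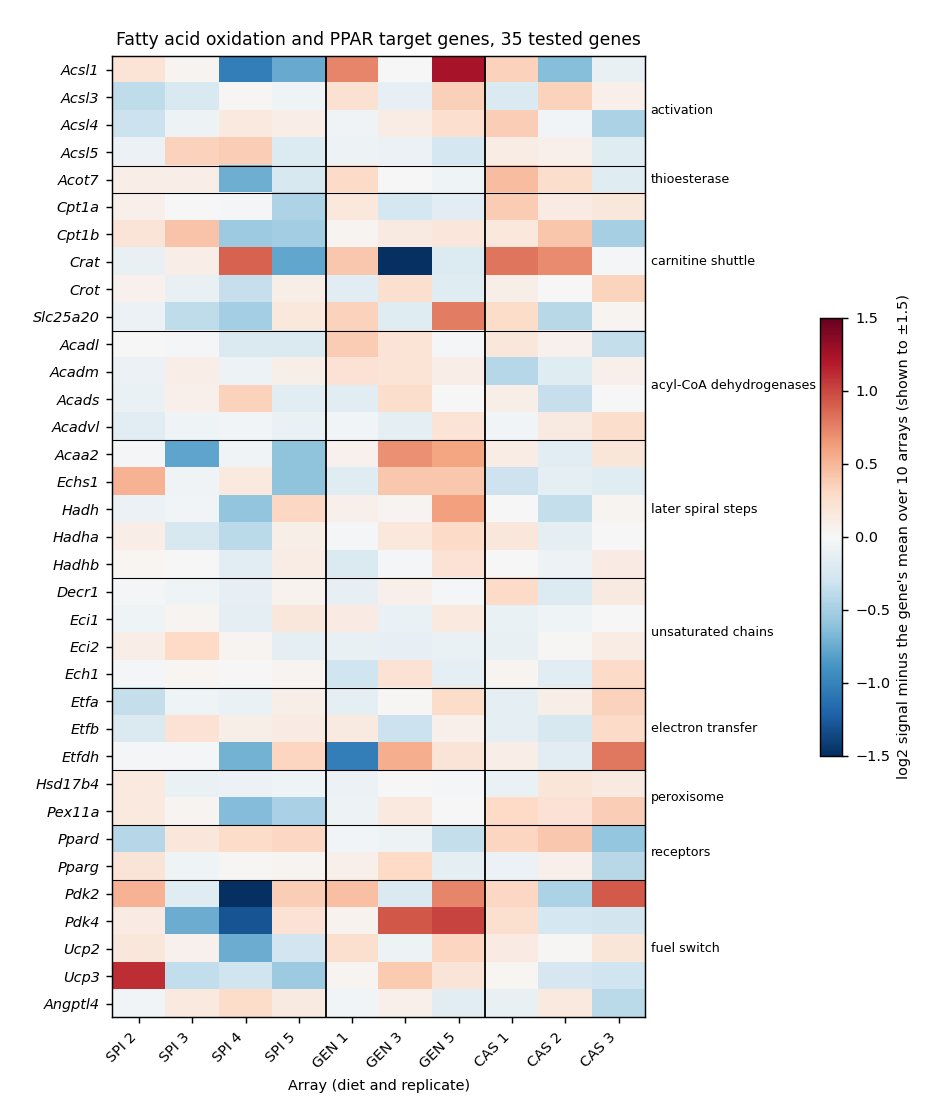
Log2 signal of each of the 35 tested genes (rows, by role) minus that gene's mean over the 10 arrays (columns: 4 SPI, 3 GEN, 3 CAS). SPI 4 holds the lowest value of 12 genes and GEN 5 the highest of 8, while genes of the unsaturated chain steps and Hsd17b4 are pale across all arrays.

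Single arrays often held the extremes. SPI 4 held the lowest of the 10 signals for 12 of the 35 genes (34.3%), while it held the lowest for 17.0% of all tested probe sets. GEN 5 held the highest for 8 genes (22.9%), beside 10.1% of all probe sets, and CAS 3 held the highest for 8, beside 17.9%. The median deviation from each gene's own mean was -0.10 log2 units on SPI 4 and 0.15 on GEN 5, beside -0.01 for all probe sets on each of these arrays. SPI 4 was also the array with the lowest luminal mean and the highest actin ratio, and GEN 5 the array with the highest luminal mean and the lowest actin ratio.

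Of the 4 activation genes, Acsl1 was the only 1 at an unadjusted p under 0.05, in SPI against GEN. Acsl1 codes for the long-chain acyl-CoA synthetase that feeds both oxidation and triglyceride synthesis in fat and liver. Its signal was 401.5, 359.7, 170.3 and 207.1 on SPI, 579.1, 347.5 and 822.2 on GEN, and 444.8, 224.4 and 324.8 on CAS. SPI 4 and SPI 5 were low and GEN 5 was high, and SPI and GEN overlapped through SPI 2, SPI 3 and GEN 3. The log2 difference was -1.04 ± 0.35 (SE) for SPI against GEN, with an unadjusted p of 0.0113 and an adjusted p of 0.558 in limma. For GEN against CAS it was 0.78 ± 0.38, with an adjusted p of 0.825, and for SPI against CAS -0.26 ± 0.35, with an adjusted p of 0.987. With each array left out in turn the SPI against GEN difference ran from -1.37 to -0.75, and the unadjusted p was no longer under 0.05 without GEN 5. The other Acsl1 probe set ran the same way, with -1.40 ± 0.61 for SPI against GEN (unadjusted p = 0.0408, adjusted p = 0.606 in limma). Acsl3 and Acsl4, synthetases with other tissue ranges, lay between -0.31 and 0.15 in all 3 comparisons. Acsl5, the synthetase of intestine and mitochondria, was 2028.7, 2750.4, 2778.4 and 1867.7 on SPI, 2043.6, 2028.7 and 1795.9 on GEN, and 2330.0, 2266.7 and 1907.5 on CAS. Its log2 difference for SPI against GEN was 0.25 ± 0.16 (adjusted p = 0.701 in limma), opposite in sign to that of Acsl1, and the diets overlapped.

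All 5 tested genes of the carnitine shuttle had log2 differences below 0 in SPI against CAS, where 52.3% of all probe sets lay below 0. Their median was -0.22, and none reached an unadjusted p under 0.05. Cpt1a codes for the enzyme that sets the rate of entry into mitochondria in most tissues other than muscle. Its brightest probe set gave 1032.8, 981.0, 967.3 and 713.3 on SPI, 1093.7, 816.4 and 882.5 on GEN, and 1273.2, 1069.9 and 1106.9 on CAS. All SPI arrays lay below all CAS arrays, and GEN overlapped both. The log2 difference was -0.33 ± 0.16 for SPI against CAS (adjusted p = 0.987 in limma) and -0.31 ± 0.17 for GEN against CAS (adjusted p = 0.825). The other probe set gave 332.3, 295.4, 322.0 and 326.4 on SPI, 455.5, 446.3 and 376.3 on GEN, and 373.2, 440.1 and 428.4 on CAS. Here SPI lay below GEN as well as below CAS without overlap. The differences of this probe set were -0.37 ± 0.14 for SPI against CAS (unadjusted p = 0.0218, adjusted p = 0.987 in limma) and -0.41 ± 0.14 for SPI against GEN (unadjusted p = 0.0128, adjusted p = 0.558). Both Cpt1a probe sets therefore placed SPI below CAS by a like amount, and they placed GEN differently, at -0.31 and 0.04 against CAS.

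Cpt1b, the muscle form, had signals of 121.8 to 238.3 on SPI, 182.3 to 200.2 on GEN and 126.0 to 235.8 on CAS. On CAS 1, the array with the highest skeletal muscle mean, Cpt1b stood at 198.5, inside the range of the other arrays. Slc25a20, the carrier that exchanges acylcarnitine for carnitine, had 283.9, 230.3, 211.0 and 334.4 on SPI, 381.0, 265.8 and 513.2 on GEN, and 364.0, 225.0 and 308.5 on CAS. Its log2 difference for SPI against GEN was -0.52 ± 0.25 (unadjusted p = 0.0589, adjusted p = 0.630 in limma), with overlap. Crat, which moves acetyl groups between carnitine and CoA, was among the least steady genes, at 192.2, 222.5, 382.5 and 120.9 on SPI, 274.5, 60.4 and 180.8 on GEN, and 361.1, 340.8 and 204.5 on CAS. Its log2 difference of -1.02 ± 0.50 for GEN against CAS (adjusted p = 0.825 in limma) was -0.40 without GEN 3. Crot, the carnitine transferase of peroxisomes, lay between -0.22 and -0.04 in the 3 comparisons. Cpt2, the transferase of the inner membrane, was below the filter at 13.2 to 92.1 on SPI, 36.6 to 157.4 on GEN and 27.0 to 200.4 on CAS. In the fit with no filter it was the only 1 of the 8 dim genes at an unadjusted p under 0.05, with a log2 difference of -1.84 for SPI against CAS (unadjusted p = 0.0452, adjusted p = 0.987 in limma). Its within-diet SD was 1.31 log2 units, and the share of all probe sets at that level was not computed for that fit.

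The acyl-CoA dehydrogenases open each turn of the spiral, each for its own chain length. Acadm, the medium-chain enzyme, had 1244.1, 1421.2, 1254.3 and 1404.7 on SPI, 1536.4, 1525.0 and 1419.9 on GEN, and 989.1, 1168.2 and 1397.6 on CAS. All GEN arrays were above all CAS arrays, although GEN 5 and CAS 3 were close, and SPI overlapped CAS. The log2 difference for GEN against CAS was 0.35 ± 0.15 (unadjusted p = 0.0369, adjusted p = 0.825 in limma). Without CAS 1 it was 0.22. The unadjusted p was no longer under 0.05 without CAS 1, nor without CAS 2, GEN 1 or GEN 3. Acadl (long-chain), Acads (short-chain) and Acadvl (very long-chain) lay between -0.30 and 0.23 in the 3 comparisons. Acadvl, which carries the element with 1 mismatch shown above, had 575.3 to 630.0 on SPI, 587.7 to 746.9 on GEN and 628.3 to 777.6 on CAS, with a log2 difference of -0.21 ± 0.14 for SPI against CAS (adjusted p = 0.987 in limma).

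Later in the spiral, Acaa2, the mitochondrial thiolase that cuts off acetyl-CoA, had the smallest p of the set. It gave 1135.7, 663.0, 1103.5 and 754.7 on SPI, 1194.6, 1841.4 and 1720.9 on GEN, and 1241.5, 1015.1 and 1301.5 on CAS. Every GEN array lay above every SPI array, and CAS lay between them with overlap on both sides. The log2 difference for SPI against GEN was -0.81 ± 0.22 (unadjusted p = 0.00251, adjusted p = 0.461 in limma). It was -0.41 ± 0.22 for SPI against CAS (adjusted p = 0.987) and 0.40 ± 0.23 for GEN against CAS (adjusted p = 0.825). Leaving out each array in turn gave -1.0 to -0.67 for SPI against GEN.

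Hadh, the short-chain hydroxyacyl-CoA dehydrogenase, had 1272.5, 1311.7, 898.8 and 1685.0 on SPI, 1425.4, 1392.3 and 2068.7 on GEN, and 1355.9, 1057.3 and 1388.2 on CAS. GEN lay above CAS without overlap, by a narrow gap between GEN 3 and CAS 3, at a log2 difference of 0.35 ± 0.23 (adjusted p = 0.846 in limma). The other, dim probe set of Hadh stood at -0.64. Echs1, the short-chain enoyl-CoA hydratase, had 673.2, 449.8, 515.9 and 308.3 on SPI, 411.5, 621.3 and 617.4 on GEN, and 377.5, 421.1 and 413.4 on CAS. SPI 2, GEN 3 and GEN 5 were high, and the log2 difference was 0.22 ± 0.24 for SPI against CAS (adjusted p = 0.987 in limma) and 0.42 ± 0.25 for GEN against CAS (adjusted p = 0.840).

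Hadha and Hadhb code for the alpha and beta chains of the mitochondrial trifunctional protein, and they lie head to head. Their start sites are 301 bases apart in the RefSeq promoter table, and their promoter windows overlap over 200 bases at chr6:31907551-31907750 (GRCr8). The shared stretch is shown because both chains are read from it in opposite directions. It is written on the plus strand, the strand of Hadha, and the capitals mark the best match to the repeat, with 3 mismatches, and 24.9% of all windows hold a match with at most that many.
Hadha and Hadhb: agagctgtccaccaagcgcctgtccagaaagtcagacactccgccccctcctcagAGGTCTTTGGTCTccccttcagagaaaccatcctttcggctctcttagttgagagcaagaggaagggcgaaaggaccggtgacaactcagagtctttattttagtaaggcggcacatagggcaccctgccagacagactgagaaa
Hadhb was among the steadiest genes, at 1542.9, 1511.9, 1342.0 and 1626.9 on SPI, 1291.0, 1489.2 and 1755.1 on GEN, and 1497.7, 1426.2 and 1635.4 on CAS. Its 95% interval for SPI against CAS ran from -0.31 to 0.28 log2 units. Hadha had 802.8 to 1144.9 on SPI, 1053.4 to 1301.7 on GEN and 963.7 to 1200.7 on CAS, with a log2 difference of -0.26 ± 0.16 for SPI against GEN (adjusted p = 0.684 in limma), while that of Hadhb was 0.00 ± 0.14 (adjusted p = 0.999). For both chains the lowest SPI array was SPI 4 and the highest GEN array was GEN 5.

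The enzymes that prepare unsaturated chains for the spiral varied least. Decr1, a dienoyl-CoA reductase, the isomerases Eci1 and Eci2, and Ech1, which moves a dienoyl bond, lay between -0.13 and 0.19 log2 units in the 3 comparisons. All 4 genes had 95% intervals within 0.5 units of 0 in each comparison. Eci1 ran from 719.3 to 891.6 on SPI, 738.3 to 879.0 on GEN and 737.7 to 790.6 on CAS, and Eci2 from 610.9 to 826.2 on SPI, 614.3 to 627.9 on GEN and 622.0 to 723.3 on CAS.

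The electron transfer flavoprotein takes electrons from the dehydrogenases, and its chains Etfa and Etfb lay between -0.20 and 0.09 log2 units. Etfdh, the dehydrogenase that passes the electrons on to the respiratory chain, had 233.8, 232.8, 145.1 and 296.4 on SPI, 115.2, 344.9 and 271.3 on GEN, and 254.3, 213.2 and 408.5 on CAS. GEN 1 and SPI 4 were low and CAS 3 was high, and the log2 difference for GEN against CAS was -0.35 ± 0.39 (adjusted p = 0.890 in limma). Without GEN 1 it was 0.12, so its sign rested on that array.

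In the peroxisome, Pex11a, a membrane protein of peroxisome division and a known PPAR target in liver, was lowest on SPI. Its brightest probe set gave 283.8, 263.9, 162.9 and 183.3 on SPI, 243.2, 284.8 and 257.8 on GEN, and 315.4, 297.7 and 330.4 on CAS. Both SPI and GEN lay below CAS without overlap, and SPI 4 and SPI 5 were the lowest arrays. The log2 difference was -0.53 ± 0.21 for SPI against CAS (unadjusted p = 0.0246, adjusted p = 0.987 in limma). For GEN against CAS it was -0.27 ± 0.22 (adjusted p = 0.860), and for SPI against GEN -0.27 ± 0.21 (adjusted p = 0.748). The unadjusted p for SPI against CAS was no longer under 0.05 without SPI 4, SPI 5, CAS 1 or CAS 3. A dim probe set of the same gene gave -0.78 for SPI against CAS but 0.42 for GEN against CAS. Hsd17b4, the bifunctional enzyme of peroxisomal oxidation, was the steadiest gene of the set, at 918.8 to 1090.4 on SPI, 930.0 to 977.5 on GEN and 920.8 to 1118.2 on CAS. Acox2, the oxidase of branched chains, was below the filter at 55.0 to 86.1 on SPI, 37.1 to 87.1 on GEN and 18.3 to 126.9 on CAS. Ehhadh, the bifunctional enzyme that PPAR activators induce in rodent liver, was also below it, at 34.1 to 109.0 on SPI, 71.9 to 107.9 on GEN and 43.0 to 93.9 on CAS.

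**Figure D3:**
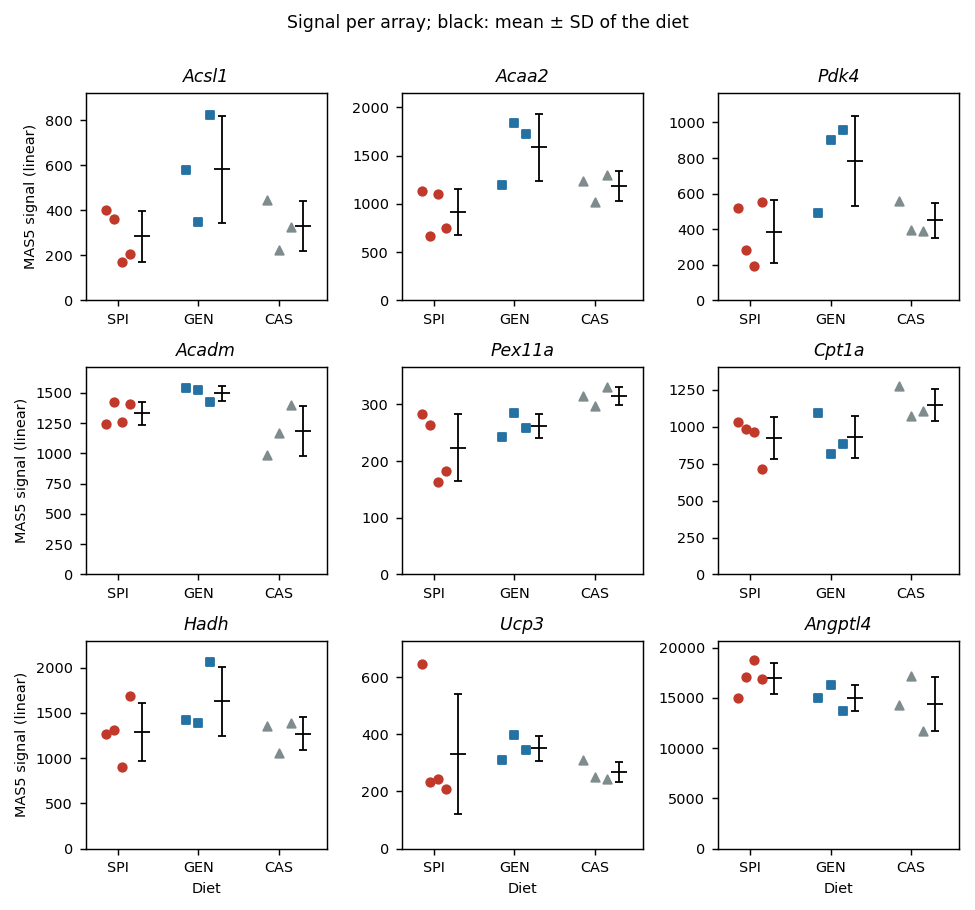
MAS5 signal per array (points, linear axis from 0) of 9 genes on SPI (4 arrays), GEN (3) and CAS (3), with the mean ± SD of each diet in black. SPI and GEN separate for Acaa2, GEN and CAS for Acadm, Hadh and Ucp3, SPI and CAS for Cpt1a and Pex11a, while Acsl1, Pdk4 and Angptl4 overlap.

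Thioesterases take CoA off again. Acot7 had 557.4, 556.2, 312.9 and 439.8 on SPI, 635.1, 520.3 and 496.0 on GEN, and 714.3, 622.7 and 455.9 on CAS. The log2 difference was -0.37 ± 0.22 for SPI against CAS (adjusted p = 0.987 in limma), with SPI 4 lowest. The other, dim probe set of Acot7, at signals of 5.9 to 79.3, gave 0.88 for SPI against CAS. Acot1 and Acot2, the cytosolic and mitochondrial forms that PPAR activators induce in rodent liver, were below the filter, with Acot1 at 81.7 to 141.9 on SPI, 93.3 to 154.9 on GEN and 75.7 to 135.3 on CAS. Acot2 stood at 26.7 to 92.5 on SPI, 41.2 to 55.7 on GEN and 34.4 to 81.2 on CAS.

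Of the receptors, Pparg, the driver of fat cell identity, had 830.2, 696.1, 734.1 and 750.1 on SPI, 765.3, 892.5 and 657.8 on GEN, and 682.4, 768.7 and 546.4 on CAS. The diets overlapped, and the log2 difference was 0.19 ± 0.16 for SPI against CAS (adjusted p = 0.987 in limma) and 0.22 ± 0.17 for GEN against CAS (adjusted p = 0.851). Ppard, the broadly expressed form, had 679.4, 1031.6, 1108.6 and 1134.7 on SPI, 888.1, 867.4 and 711.9 on GEN, and 1141.3, 1209.7 and 613.4 on CAS. SPI 2 and CAS 3 were low within their diets, and the log2 difference was 0.03 ± 0.24 for SPI against CAS (adjusted p = 0.993 in limma), -0.21 ± 0.26 for GEN against CAS (adjusted p = 0.899) and 0.24 ± 0.24 for SPI against GEN (adjusted p = 0.800). The other, dim probe set of Ppard, at signals of 1.8 to 83.0, had the opposite sign each time, at -0.91, 0.32 and -1.23 in the same order. The 95% interval for Pparg in SPI against CAS ran from -0.15 to 0.53. Ppara, the receptor that drives oxidation in liver, was read by a dim probe set, at 9.8 to 15.6 on SPI, 9.1 to 16.7 on GEN and 15.1 to 19.1 on CAS. The coactivator Ppargc1a was dim too, at 1.4 to 28.3 on SPI, 1.1 to 4.2 on GEN and 1.4 to 6.5 on CAS, and so was the partner receptor Rxra, at 30.6 to 139.7 on SPI, 80.8 to 170.0 on GEN and 47.4 to 115.4 on CAS. These 3 genes were tested only in the fit with no filter, where none reached an unadjusted p under 0.05 in any comparison.

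Among 5 PPAR targets of the switch between fuels, all had log2 differences above 0 in GEN against CAS, with a median of 0.07, where 52.1% of all probe sets lay below 0. None of the 5 reached an unadjusted p under 0.05 there, and Ucp2 (0.05), Pdk2 (0.07) and Angptl4 (0.07) lay close to 0. Pdk4, the kinase that blocks pyruvate dehydrogenase and so spares glucose, had 516.7, 283.5, 193.8 and 551.8 on SPI, 493.7, 902.9 and 957.4 on GEN, and 560.7, 396.0 and 391.9 on CAS. GEN 3 and GEN 5 stood above all other arrays and SPI 4 below them, while GEN 1 lay inside the SPI range. The log2 difference was -1.09 ± 0.34 for SPI against GEN (unadjusted p = 0.00764, adjusted p = 0.558 in limma). With each array left out in turn it ran from -1.39 to -0.80. The log2 difference was 0.76 ± 0.37 for GEN against CAS (adjusted p = 0.825) and -0.32 ± 0.34 for SPI against CAS (adjusted p = 0.987). Pdk2, another kinase of the same complex, had 246.2, 151.6, 31.7 and 223.1 on SPI, 235.0, 148.3 and 285.6 on GEN, and 214.3, 124.3 and 326.0 on CAS. SPI 4 was far below the rest, and the log2 difference for SPI against CAS was -0.69 ± 0.59 (adjusted p = 0.987 in limma), and -0.02 without SPI 4. The other, dim probe set of Pdk2, at signals of 17.2 to 44.8, gave 0.70 for SPI against CAS.

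The mitochondrial carriers Ucp2 and Ucp3 and the secreted lipase inhibitor Angptl4 complete the group. Ucp3 had 647.8, 232.4, 244.1 and 207.3 on SPI, 310.2, 397.1 and 345.7 on GEN, and 308.7, 252.0 and 244.1 on CAS. SPI 2 stood apart from the other 9 arrays. GEN lay just above CAS without overlap, at a log2 difference of 0.39 ± 0.34 (adjusted p = 0.873 in limma). Ucp2 ran from 741.4 to 1398.5 on SPI, 1171.0 to 1541.9 on GEN and 1252.4 to 1400.2 on CAS, with SPI 4 lowest and a log2 difference of -0.36 ± 0.20 for SPI against GEN (adjusted p = 0.660 in limma). Angptl4, which PPAR receptors induce in fat and liver, had 15013.7, 17040.1, 18780.5 and 16911.6 on SPI, 14969.4, 16272.9 and 13697.7 on GEN, and 14280.8, 17136.3 and 11717.1 on CAS. SPI 4 was the highest array here, opposite to its place for Pdk4, and the log2 difference for SPI against CAS was 0.25 ± 0.13 (unadjusted p = 0.0803, adjusted p = 0.987 in limma).

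Acsl1, Pdk4 and Acaa2, the 3 genes with an unadjusted p under 0.05 in SPI against GEN, were set against the luminal marker mean and the actin ratio of each array, a choice made after their values were seen. The genes were picked for a lower level on SPI than on GEN, and the luminal mean also ran lower on SPI, so correlations over all 10 arrays describe a pattern that the choice in part fixed, and no p is given for them. With the luminal mean, Pearson r over 10 arrays was 0.915 for Acsl1, 0.833 for Pdk4 and 0.541 for Acaa2, and Spearman rho was 0.939, 0.713 and 0.689. SPI 4 and GEN 5 lay farthest from the median luminal mean, and without them r was 0.848 for Acsl1, 0.499 for Pdk4 and 0.685 for Acaa2. With the log2 actin ratio, r was -0.327 for Acsl1, -0.803 for Pdk4 and -0.198 for Acaa2, and 0.779, -0.460 and 0.068 without the same arrays. The luminal mean and the ratio themselves went together at an r of -0.543.

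Within diets, where each value was taken as its deviation from the mean of its diet, the log2 signal of Acsl1 went with the luminal mean at r = 0.877 (exact permutation p = 0.00231 over 864 arrangements of arrays within diets, adjusted 0.0139 over 6 relations). For Pdk4 the within-diet r was 0.715 (exact permutation p = 0.0671, adjusted 0.134), and for Acaa2 it was 0.066 (exact permutation p = 0.920, adjusted 0.920). With the actin ratio it was -0.113 for Acsl1 (exact permutation p = 0.828, adjusted 0.920), -0.813 for Pdk4 (exact permutation p = 0.037, adjusted 0.111) and 0.132 for Acaa2 (exact permutation, adjusted p = 0.920). Acsl1 with the luminal mean was thus the only relation of the 6 that passed adjustment within diets. The adjustment covers these 6 relations only, not the earlier choice of the genes and of the luminal list. No other gene or marker list was examined in this way, so how unusual such an r is on these arrays was not tested. The tests are two-sided, this form was added after seeing the data, and the arrays may share RNA pools, which the p-values do not allow for.

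**Figure D4:**
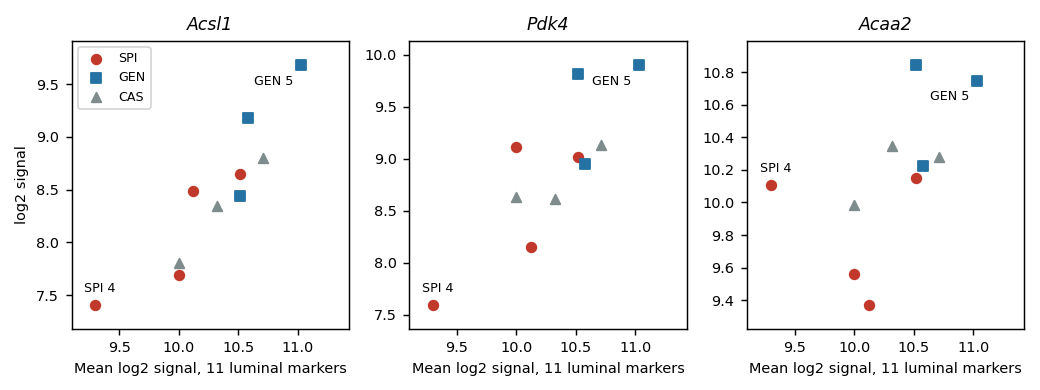
Log2 signal of Acsl1, Pdk4 and Acaa2 (vertical axes) against the mean log2 signal of 11 luminal epithelial markers (horizontal axis), 1 point per array, for SPI, GEN and CAS. Acsl1 climbs with the luminal mean from SPI 4 to GEN 5 (r = 0.915), while for Acaa2 (r = 0.541) SPI 4 lies above SPI 3 and SPI 5.

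With the luminal mean as a covariate in the fit, the log2 difference for SPI against GEN was -0.14 for Acsl1 and -0.37 for Pdk4, compared with -1.04 and -1.09 without it. For Acaa2 it was -0.77, compared with -0.81. Acaa2 was then the only 1 of the 35 genes at an unadjusted p under 0.05 in SPI against GEN (2.86%). The share of all probe sets at that level was 3.07% in that fit and 7.95% without the covariate. The balance of directions over the set also turned, to 20 genes above 0 and 15 below in SPI against GEN. However, the highest luminal mean on SPI equalled the lowest on GEN (10.52), so the covariate nearly separated these diets. The fit therefore cannot tell a difference by diet from one by luminal content, for genes that shrank or for Acaa2. Without SPI 4 and CAS 1 the differences were -0.82 for Acsl1, -0.80 for Pdk4 and -0.91 for Acaa2. Other marker means also separated these diets without overlap. The mean of 5 milk genes was 11.64 to 12.99 on SPI and 13.38 to 13.97 on GEN. That of 4 basal markers, of which 3 passed the filter, was 6.69 to 7.94 on SPI and 8.06 to 8.75 on GEN. The mean of 23 skeletal muscle markers, of which 7 passed the filter, was 5.69 to 5.89 on SPI and 5.91 to 6.2 on GEN. Separation was thus not particular to epithelial lists, while the white adipocyte, brown adipocyte, macrophage and endothelial means overlapped. The part of these cell types in the differences was not tested.

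The spread between arrays of the same diet set what could be seen. The median within-diet SD of log2 signal was 0.23 over the 35 genes, beside 0.25 over all tested probe sets, and it ran from 0.11 for Hsd17b4 to 1.01 for Pdk2. Crat (0.79), Etfdh (0.59), Acsl1 (0.58), Pdk4 (0.57) and Ucp3 (0.52) followed Pdk2. Acsl1 and Pdk4 thus combined large differences between SPI and GEN with large spread, whereas Acaa2 (0.33) had a difference of similar order with less spread.

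Other genes of the pathway, taken from lists of uptake, peroxisome, ketone body, further oxidation, PPAR target and coregulator genes were examined in the same fit. Of 91 listed, 49 passed the filter and 0 passed the adjusted test in any comparison. An unadjusted p under 0.05 was reached by 3 of 49 (6.12%) in SPI against CAS, beside 4.82% of all probe sets. It was reached by 4 (8.16%) in GEN against CAS, beside 5.89%, and by 3 (6.12%) in SPI against GEN, beside 7.95%. For SPI against CAS the smallest p were those of the fatty acid binding proteins Fabp3 (log2 difference 1.54 ± 0.38, adjusted p = 0.582 in limma) and Fabp5 (0.46 ± 0.20, adjusted p = 0.987), and of Mlycd (-0.48 ± 0.16, adjusted p = 0.941), which removes the malonyl-CoA that inhibits Cpt1a. For GEN against CAS they were those of Fabp3 (2.04 ± 0.41, adjusted p = 0.462), the lipid droplet coat gene Plin2 (0.70 ± 0.19, adjusted p = 0.824) and the peroxisomal reductase Pecr (0.62 ± 0.22, adjusted p = 0.825). All 9 tested genes of uptake and binding had a log2 difference above 0 in GEN against CAS, with a median of 0.21, where 52.1% of all probe sets lay below 0. Of the 9, 2 reached an unadjusted p under 0.05, while Slc27a3 (0.03), Slc27a1 (0.04), Slc27a4 (0.05) and Lpl (0.05) lay close to 0. For SPI against GEN the smallest p were those of Plin2 (-0.54 ± 0.18, adjusted p = 0.558 in limma), Acat1, the thiolase of ketone body metabolism (-0.38 ± 0.14, adjusted p = 0.563), and the lipase gene Lipe (0.72 ± 0.29, adjusted p = 0.583). The mean of the 11 white adipocyte markers overlapped between diets, at 8.69 to 8.88 on SPI, 8.44 to 8.91 on GEN and 8.77 to 8.97 on CAS.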

How the data were processed

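The deposited values are MAS5 signal intensities on a linear scale, 1 per probe set and array, per the submitters' processing notes, which as used here name no software version. All 10 arrays shared about the same trimmed mean (500.12 to 500.14, 2% trimmed at each end), and no presence calls were used here. The 57 control probe sets among 15923 were left out. Intensities under 1 were set to 1 before log2, and the dimmest 40% by mean log2 signal were removed, which left 9520 of 15866 (geometric mean signal of at least 162). Symbols came from the platform annotation through Entrez identifiers, and only probe sets with 1 symbol were named.

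Differences between diets were tested with limma 3.58.1 in R 4.3.3 (lmFit, eBayes with trend), with all 10 arrays in 1 fit, 7 residual degrees of freedom and Benjamini-Hochberg adjustment over 9520 probe sets. The scripts were tested on simulated data. Errors of log2 differences are standard errors, and the number of arrays limits their precision: the 95% intervals of the 35 genes reached 0.28 to 1.37 log2 units to either side. Within-diet correlations were tested by exact permutation of arrays within diets (864 arrangements, two-sided).

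Values per array are given for genes at an unadjusted p under 0.05, without overlap between diets, among the 3 highest or 3 lowest log2 differences of a comparison, or coding for receptors, and for others chosen after their values were seen. The members and lists were chosen with earlier results of these data known. Same-numbered arrays of different diets did not deviate together (r from -0.183 to 0.155 over 6 pairs), so numbers were not taken as pairs. Alternatives were other scalings, filters, floors and eBayes settings, covariates, the replicate number as a block, 2 diets per fit, the mean over all probe sets of a gene, and leaving out each array.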

Additional observations from a re-analysis of the deposited data

Results flagged for a closer look

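Among the 43 genes with a probe set, 2 had an SPI array far from the other 3 by Dixon's criterion, where chance gives about 1 in 20. Both were SPI 2. Ucp3 stood at 647.8 there and at 207.3 to 244.1 on the other SPI arrays, and Hsd17b4 stood at 1090.4 there and at 918.8 to 938.1 on the others. GEN and CAS, with 3 arrays each, were not examined in this way.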

How the results depend on the processing

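The shortage of calls held throughout: at most 2 of all probe sets passed an adjusted p under 0.05 in limma under any setting, and none of the named genes recomputed under each setting did. For SPI against CAS, 2 probe sets passed with the luminal marker mean as a covariate and 1 without SPI 4 and CAS 1 (both chosen after seeing the data). For GEN against CAS it was 2 with the dimmest 60% left out, 2 with robust eBayes and 2 without SPI 4 and CAS 1, and for SPI against GEN 2 with only these diets in the fit. Leaving out each array gave 0 to 2 for SPI against CAS, 0 to 1 for GEN against CAS and 0 to 1 for SPI against GEN. Genes of the set at an unadjusted p under 0.05 in SPI against CAS numbered 2 with no filter (which adds the 8 dim genes, of which Cpt2 was at that level). They numbered 2 with the actin covariate, beside 5.12% of all probe sets. They numbered 0 with the muscle covariate (beside 3.21%), the luminal covariate (3.69%), and without SPI 4 and CAS 1 (3.35%). With the dimmest 60% left out the number was also 0, but Pex11a, the only gene at that level in the main fit, was itself left out there. In GEN against CAS they numbered 2 with median centring, where 261 of all 9520 probe sets were higher and 285 lower at that level. They numbered 2 with the muscle covariate (beside 7.17% of all probe sets), only 2 diets, and without SPI 4 and CAS 1 (8.55%). They numbered 3 with quantile normalization, where 305 of all probe sets were higher and 317 lower, and 0 with the actin covariate (5.04%). In SPI against GEN the number was 1 with the luminal covariate, beside 3.07% of all probe sets. Leaving out each array gave 0 (without SPI 5 or CAS 1) to 4 (without SPI 2) in SPI against CAS, 0 (without CAS 2) to 5 (without GEN 1) in GEN against CAS and 3 to 6 (without SPI 5) in SPI against GEN. At the highest counts the shares of all probe sets were 5.83% without SPI 2, 7.43% without GEN 1 and 11.5% without SPI 5, in the same comparisons. With all arrays they were 4.82%, 5.89% and 7.95%. Where the count was 0 they were 6.39% without SPI 5, 3.76% without CAS 1 and 6.54% without CAS 2. Median log2 differences over the genes were -0.02 (muscle covariate), 0.01 (luminal covariate) and 0.03 (without SPI 4 and CAS 1) in SPI against CAS, and 0.04 (luminal covariate) in SPI against GEN. Leaving out each array gave medians of -0.16 to -0.02, -0.03 to 0.08 and -0.16 to -0.08 for SPI against CAS, GEN against CAS and SPI against GEN. With the replicate block, 0, 1 and 2 genes stood at an unadjusted p under 0.05 in the same order, with medians of -0.07, 0.03 and -0.08, and 0 probe sets passed. The share of all probe sets at that unadjusted level was not computed with the replicate block, no filter, the dimmest 60% left out or only 2 diets. The counts of genes in those fits therefore have no background to be read against. With median centring, probe sets at an unadjusted p under 0.05 were higher in 63.3% for SPI against CAS (31.8% as deposited) and in 69.2% for SPI against GEN (46.5% as deposited), and the median of all probe sets was 0.06 and 0.057.

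Signs turned for these log2 differences. Over all probe sets of a gene, Ppard was -0.44 and Pdk2 0.01 in SPI against CAS, Hadh -0.15, Pex11a 0.08 and Ppard 0.06 in GEN against CAS, and Ppard -0.50 in SPI against GEN. With the luminal covariate, Ppard was -0.12 and Pdk2 0.04 in SPI against CAS, and Ppard -0.06 in SPI against GEN. Without SPI 4 and CAS 1, Pdk2 was 0.01 in SPI against CAS, and with median centring Pparg was 0.03 in SPI against GEN. Leaving out each array gave -0.28 to 0.21 for Ppard in SPI against CAS, -0.67 to 0.12 for Etfdh in GEN against CAS, and -0.08 to 1.01 for Crat and -0.14 to 0.08 for Pparg in SPI against GEN. The causes were not tested. Probe sets near background and 3 or 4 arrays per diet limit what could be detected.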
